A study of Mus musculus with 29 samples.

Results

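In the anterior cingulate cortex (ACC) of mice 4 weeks after a training session, 856 exonic bins shared 3 properties: each was bin 1 of its gene, the gene lies on the minus strand, and the authors' deposited exon tables list the bin as different from naive animals. An exonic bin is a stretch of a gene's exons that is counted on its own. The tables list a bin only where its adjusted p-value is below 0.1, so the listing itself, made on these ACC libraries, chose the members. They make up 16.6% of the 5155 bins listed in either ACC table, and their genes make up 11.1% of the 7680 minus-strand genes measured in ACC. After exposure to a context alone 800 of them were listed, after context plus footshock 496, and 440 were listed in both, which is 55% of the context list and 88.7% of the shock list.

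The study sequenced polyadenylated RNA from 29 libraries of 2 brain regions in a contextual fear conditioning experiment. All mice were male, 3 months old and of the strain labelled C56BL/6, carried no labelled transgene and were housed singly. ACC was taken from naive mice (5 libraries), from mice 4 weeks after exposure to a new context (5 libraries) and from mice 4 weeks after the context followed by a 0.7 mA footshock (5 libraries). CA1, a hippocampal field, was taken from naive mice (5 libraries), 1 hour after context (5 libraries) and 1 hour after context plus footshock (4 libraries). Each trained group was compared with the naive group of its region, so both ACC comparisons share their naive libraries. The labels name no naive group kept for a further 4 weeks, so the training and the 4 weeks cannot be told apart. The region and the time after training cannot be told apart either. The deposited tables give a base mean (the authors' mean normalised count over the libraries compared), a log2 fold change and p-values for each gene or bin, and no value per library. The spread between replicates and the sequencing depth therefore enter only through the authors' p-values. The labels speak of 5 mice in a group and number the libraries without tying each to a mouse, so those p-values measure the spread between these libraries.

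A messenger RNA ends where the nascent transcript is cleaved, a short distance after a polyadenylation signal, most often AATAAA or ATTAAA. The stretch between the stop codon and that end is the 3′ untranslated region (3′ UTR), which holds binding sites for microRNAs and RNA-binding proteins and is long in many neuronal genes. RNA selected by its poly(A) tail is caught at the 3′ end, so the coverage of a library along a transcript depends on how intact the RNA is as well as on which isoforms are present.

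Bin numbers follow genome position in the common way of cutting genes into exonic bins, so bin 1 of a minus-strand gene would be its 3′ end. The deposited tables give no bin coordinates, so a reference gene set was used, GENCODE release M21 on the mouse build mm10. Its bins were numbered here by genome position, so the shares below cannot show how the authors numbered theirs. In that annotation bin 1 held annotated 3′ UTR in 838 of the 856 member genes (97.9%), in 5901 of 6757 other minus-strand genes (87.3%) and in 168 of 7724 plus-strand genes (2.18%). Listed bin numbers lay within the number of M21 bins of the gene for 4301 of 4339 listed bins with a gene model after context and for 2465 of 2490 after shock in ACC. Such counts do not show the direction of the numbering. The authors' own gene models were not used here, so bin lengths and positions below are those of M21. The 5′ and 3′ ends of bins below rest on numbering by position, which the sources do not state.

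With bins numbered by position, the last bases of the member transcripts show what kind of sequence the members hold. The following 9 are the final 30 bases of M21 transcripts on the minus strand, 5′ to 3′, with the polyadenylation signal in capitals. They were chosen from named members whose M21 end equals the deposited gene end. The leading 6 were higher in ACC, Kcnh7 was higher in ACC and lower in CA1, and Sphk2 and Cnksr2 were lower in ACC.
Kif5a (chr10:127225696-127225725): tatctttaaAATAAAataacttcgatgacg
Taok1 (chr11:77529162-77529191): aactgtAATAAAagtaattttagtacacag
Rims1 (chr1:22286251-22286280): acatgtttAATAAAacttacttttcatgtc
Prkca (chr11:107933387-107933416): tgtatgAATAAAgatactgatcactgctga
Ywhaz (chr15:36770770-36770799): gtaaatgctcAATAAAtattgatgatggga
Frrs1l (chr4:56957173-56957202): atataATTAAAactagtttataattcctta
Kcnh7 (chr2:62693414-62693443): gtttactgtataAATAAAagcacttataca
Sphk2 (chr7:45709467-45709496): tagagAATAAAtagattccaggtgcacatg
Cnksr2 (chrX:157821436-157821465): gtaaactgaagtcaAATAAAtccagctctt
In the last 50 bases of the M21 gene end, read on the transcript strand, AATAAA was present in 628 of the 856 members (73.4%), ATTAAA without AATAAA in 107 (12.5%) and neither in 121 (14.1%). Over all 7613 minus-strand genes with a model the shares were 62.8%, 14.3% and 22.9%. The M21 gene end equalled the deposited gene end for 565 members (66.0%). For the others the window may miss the end the authors used, and a window with neither motif says only that these letters are not in it.

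The listed first bins of minus-strand genes were almost all higher in trained ACC. After context 792 of 800 were higher and 8 lower, with a median log2 fold change of 0.10, a middle range from 0.0710 to 0.149 and extremes of -0.41 and 1.15. After shock 485 of 496 were higher and 11 lower, with a median of 0.10, a middle range from 0.0672 to 0.143 and extremes of -0.46 and 0.39. These medians correspond to 1.08-fold and 1.07-fold. Over all exonic bins tested, 2.22% were listed after context (1.33% higher and 0.897% lower) and 1.26% after shock (0.811% higher and 0.45% lower). The rule used these contrasts, so the counts describe the members and test nothing.

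The changes were small and most bins were well covered. An absolute log2 fold change under 0.1 was found in 364 of the 800 bins after context and in 238 of the 496 after shock, and one above 0.2 in 79 and 43. The median base mean of the members was 531.9 after context, within a range from 6.81 to 19436.5, and 671 after shock, from 40.3 to 20985. The bin that stands apart at 1.15 in the plot of listed first bins is that of Cdh2, the adhesion protein N-cadherin, named after its value was seen, and it has the lowest base mean of the context list, 6.81. The 440 bins listed in both ACC tables were higher in both in 436 cases and lower in both in 4. Bins listed after context only were higher in 356 of 360 cases, and those listed after shock only in 49 of 56.

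**Figure D1:**
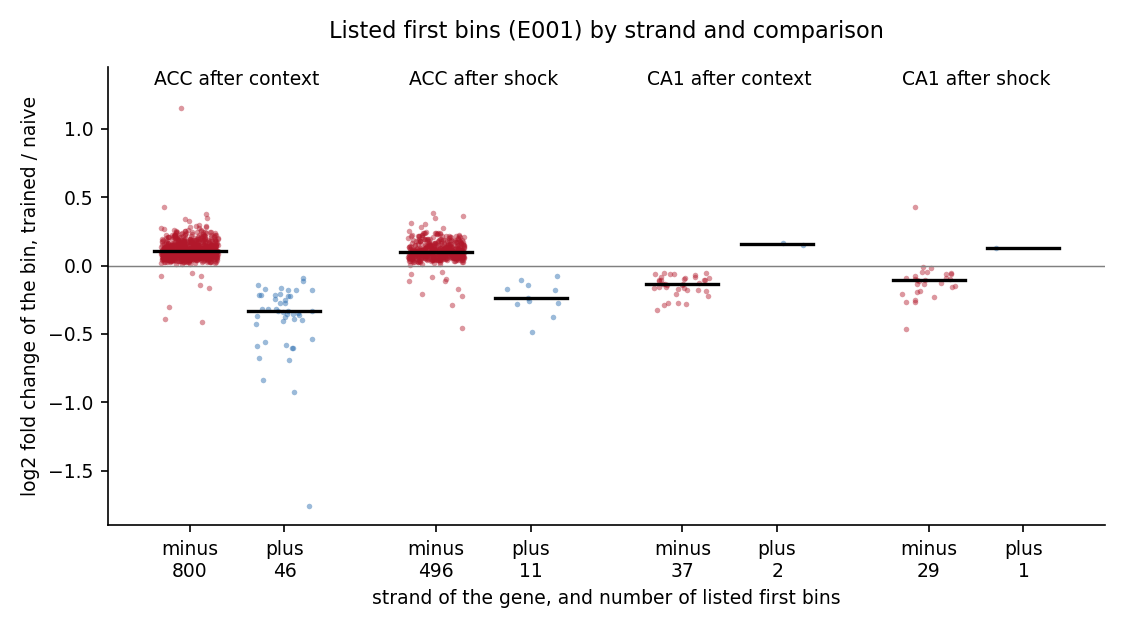
Log2 fold change (trained over naive) of every listed bin 1, by strand of the gene and by comparison, with each point a bin, the number of bins under each column and a black bar at the median. In ACC the 800 and 496 minus-strand bins lie mostly just above 0 and the 46 and 11 plus-strand bins all lie below 0, while in CA1 all but 1 of the minus-strand bins lie below 0.

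Numbered by position, bin 1 of a plus-strand gene is its 5′ end, and there the direction was the other way. In ACC 46 such bins were listed after context and 11 after shock, all 57 entries lower, with medians of -0.34 and -0.24. The last bin of plus-strand genes, which is their 3′ end, was higher in 396 of 403 listed cases after context (median 0.11) and in 233 of 238 after shock (median 0.11). The last bin of minus-strand genes, their 5′ end, was higher in 1 of 25 and in 2 of 9 listed cases. Under that numbering, direction thus went with the end of the transcript on both strands, and not with the bin's number.

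The same pattern ran along the body of the member genes. After context, 223 member genes had a further 470 listed bins, of which 52 were higher and 418 lower, with a median of -0.24. By distance from the 3′ end, bin 2 was higher in 27 of 54 cases, bins 3 to 5 in 21 of 73 and bin 6 or above in 4 of 343, the last group with a median of -0.28. After shock, 115 member genes had 231 further bins, 26 higher and 205 lower. Bin 6 or above was higher in 3 of 169 of these, with a median of -0.26. In genes with at least 5 M21 bins, cut into quintiles from 5′ to 3′, the share of listed minus-strand bins that were higher after context was 1.20%, 0.437%, 3.23%, 15.8% and 93.2%. After shock it was 2.44%, 0.833%, 5.88%, 18.5% and 92.4%. Plus-strand genes, none of them members, went from 2.42% in the 5′ quintile to 92.9% in the 3′ quintile after context and from 3.55% to 92.0% after shock. RNA integrity values are not among the sources used here, and the part of RNA integrity or of isoform choice in this pattern was not tested.

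**Figure D2:**
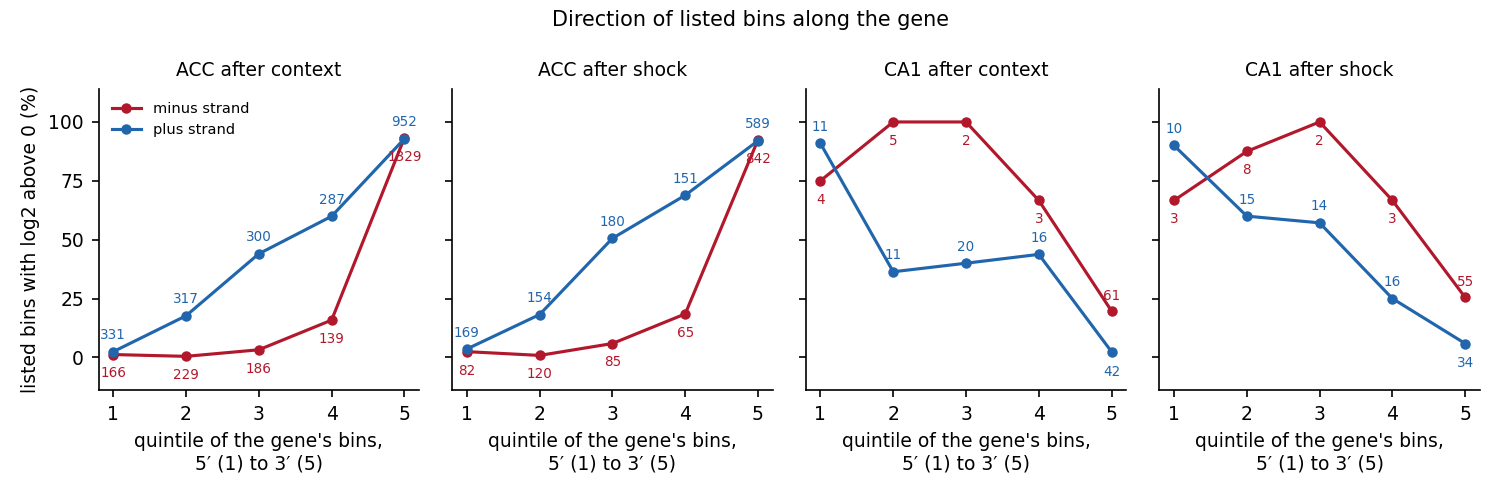
Share of listed bins with a log2 fold change above 0 (y axis, percent) in each quintile of the gene's bins from the 5′ end (1) to the 3′ end (5), for minus-strand and plus-strand genes, with the number of listed bins at each point. Both strands climb to above 90% at the 3′ quintile in ACC, and in CA1, where each point holds 61 bins or fewer, the 3′ quintile is the lowest point on both strands.

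A bin's fold change was read here as its use relative to the rest of its gene, which the sources do not state. Of the context members, 59 belonged to genes whose whole-gene log2 fold change was below -0.3, and the bin was higher in all 59. Nearly all context members were higher (792 of 800), so counts within them do not test that reading. In 80 of the 856 members the M21 first bin lay wholly outside the deposited gene, and in 10 the bin's base mean was above that of the whole gene, so the gene value there leaves out most or all of the bin's reads. Of the 59 genes, 38 met neither condition, and the bin was higher in all 38. An example is Kif5b, a kinesin heavy chain, whose bin and gene had base means of 533 and 3732 after context in the authors' deposited tables. Its gene fell by 0.61 after context (adjusted p = 1.45e-13) and 0.72 after shock (adjusted p = 3.75e-34) as log2 values, and its first bin was listed as higher by 0.15 (adjusted p = 0.00521) and 0.19 (adjusted p = 5.31e-07), in the authors' deposited tables. Kcnq3, a subunit of the M-current potassium channel, and Grin2b, an NMDA receptor subunit with an annotated 3′ UTR of 18868 bases, are of the other kind. Their first bins had base means of 1870 and 3694 after context against 273 and 185 for their genes, and were higher by 0.0604 (adjusted p = 2e-08) and 0.0860 (adjusted p = 2.3e-16), in the authors' deposited tables. The genes, counted without most of those reads, were at -1.06 (adjusted p = 3.2e-29) and -1.61 (adjusted p = 1.5e-37) in the authors' deposited table. In bulk tissue, fewer cells of a type and less RNA per cell cannot be told apart.

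Motors and microtubule proteins included the bin with the highest count. Kif5a (ENSMUSG00000074657, chr10:127225696-127263363), a kinesin heavy chain that moves cargo along axons, has the first bin with the highest base mean, 19436.5 after context and 20985 after shock. The bin was higher by 0.14 (adjusted p = 2.3e-31) and 0.12 (adjusted p = 2.7e-15), while the gene was lower by 0.27 and 0.26 (adjusted p = 2.4e-05 and 3.8e-06) as log2 values in the authors' deposited tables. The M21 first bin of Kif5a spans 2726 bases, all 3′ UTR, and ends in the AATAAA shown above. Map1b (ENSMUSG00000052727, chr13:99421464-99516602), a microtubule-associated protein of growing axons, had the smallest p of the context list, and the authors' deposited table gives it a bin change of 0.18 (adjusted p = 1.55e-56). After shock it stood at 0.17 (adjusted p = 2.4e-07), with a gene-level log2 of -0.23 (adjusted p = 1.5e-10), in the authors' deposited tables. Kif1a, the motor of synaptic vesicle precursors, had bin changes of 0.25 (adjusted p = 7.3e-29) and 0.18 (adjusted p = 6.4e-15) with gene-level values of -0.0070 and -0.0220 in the authors' deposited tables, so its 3′ bin was higher with no gene-level call. Of 19 minus-strand genes in a list of cytoskeletal and motor genes 10 were members, beside 11.1% of all minus-strand genes. The listed bins of all 10 were higher, as were nearly all member bins. In the quintile of highest base mean after context 33.7% of minus-strand genes were members, and in that of longest transcripts 28.8%. This list and those below were not matched to other genes for either.

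Genes of vesicle release and of synaptic contact were among the members. Of 23 minus-strand genes of synaptic vesicles and release 11 were members, and of 12 scaffold and adhesion genes 7, each listed bin higher. These shares stand beside 11.1% of all minus-strand genes and 33.7% of those in the quintile of highest base mean. Rims1, which organises the active zone, had bin changes of 0.24 after context (adjusted p = 3.1e-11) and 0.18 after shock (adjusted p = 3.3e-05) and gene-level values of -0.32 and -0.40 in the authors' deposited tables. Unc13a, which primes vesicles for fusion, had 0.16 (adjusted p = 2.9e-27) and 0.12 (adjusted p = 9e-12) in the authors' deposited exon tables. Sv2b, a glycoprotein of the vesicle membrane, had 0.10 (adjusted p = 4.4e-40) and 0.0934 (adjusted p = 8.8e-05) in the authors' deposited tables. On the contact side, Nlgn2, an adhesion protein of inhibitory synapses, stood at 0.0629 and 0.0511 in the authors' deposited exon tables. Thus all 4 of these genes were listed in both comparisons, with changes from 0.0511 to 0.24.

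Channel and receptor genes were among the members too. Members were 3 of 19 minus-strand potassium channel genes and 6 of 14 sodium and calcium channel genes. So were 4 of 17 minus-strand glutamate receptor genes and 4 of 10 GABA receptor genes, with each listed bin higher. Of all minus-strand genes 11.1% were members, near the potassium channel share, and of those in the quintile of highest base mean 33.7%. Cacna1e (ENSMUSG00000004110), the pore of the R-type calcium channel, had bin changes of 0.22 (adjusted p = 2.2e-37) and 0.25 (adjusted p = 1.5e-09) and gene-level values of -0.41 and -0.42 in the authors' deposited tables. Cacna1c, the pore of an L-type channel, had 0.19 (adjusted p = 0.0206) and 0.11 (adjusted p = 0.0180), with the gene lower by 0.45 and 0.29, in the authors' deposited tables. Frrs1l, an auxiliary protein in the assembly of AMPA receptors, stood at 0.12 (adjusted p = 8e-34) and 0.16 (adjusted p = 8.9e-09) in the authors' deposited exon tables. Gabbr2, a subunit of the GABA-B receptor, had 0.12 (adjusted p = 6.1e-28) and 0.10 (adjusted p = 4.4e-07) there in the authors' deposited tables. Absence of a bin from a table says only that its adjusted p there was not below 0.1.

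Of 20 minus-strand genes of chromatin and transcription 9 were members, beside 11.1% of all minus-strand genes and 33.7% in the quintile of highest base mean. Their medians were 0.20 over 9 bins after context and 0.24 over 6 bins after shock, all higher. Chd3 (ENSMUSG00000018474, chr11:69343273-69369406), a remodeller of the NuRD complex, had the smallest p after shock, and the authors' deposited table gives it a bin change of 0.23 (adjusted p = 2.4e-25). After context its bin stood at 0.25 (adjusted p = 1e-31), and its gene-level values were -0.21 and -0.17, in the authors' deposited tables. Mll1, a histone H3 lysine methyltransferase, had 0.18 (adjusted p = 4.4e-36) and 0.31 (adjusted p = 3.9e-10), with no gene-level call (adjusted p = 0.289 and 0.290), in the authors' deposited tables. Jhdm1d, a histone demethylase, had 0.21 (adjusted p = 1.21e-10) and 0.13 (adjusted p = 7.75e-19) in the authors' deposited tables. Crebbp, a histone acetyltransferase, stood at 0.21 (adjusted p = 0.0321) and 0.25 (adjusted p = 0.0307) beside gene-level values of -0.53 and -0.33 in the authors' deposited tables. Hdac4, a histone deacetylase, had 0.13 (adjusted p = 1.2e-08) and 0.11 (adjusted p = 1e-05) beside -0.63 and -0.64 for the gene in the authors' deposited tables. The M21 first bins of Hdac4 and Crebbp, like those of Cacna1e and Cacna1c above, lie wholly outside the deposited gene, so the gene values set beside them may leave out the bin's reads. Tet3 and Tet2, enzymes that oxidise methylated cytosine, had bin changes of 0.20 and 0.20 after context and 0.11 and 0.28 after shock in the authors' deposited tables.

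Of 16 minus-strand genes of signalling kinases and phosphatases 6 were members, and their listed bins were higher. Members were 11.1% of all minus-strand genes and 33.7% of those in the quintile of highest base mean. Values follow for Prkca, of that list, and for other members with small p. Taok1, a protein kinase, had a bin change of 0.0496 after context (adjusted p = 2.2e-32) and 0.18 after shock (adjusted p = 1.1e-08), and its M21 first bin is 9167 bases long, in the authors' deposited tables and the annotation. Peg3, an imprinted zinc finger gene, had 0.0851 (adjusted p = 2.5e-56) and 0.20 (adjusted p = 3.6e-07) in the authors' deposited tables. Adrbk2, a kinase that silences G protein-coupled receptors, had 0.0959 (adjusted p = 6.3e-25) and 0.0878 (adjusted p = 4.9e-19), and Prkca, a protein kinase C, 0.0997 and 0.0942 in the authors' deposited tables. Rasal2, a Ras GTPase-activating protein, stood at 0.11 (adjusted p = 1.15e-19) and 0.13 (adjusted p = 1.6e-14) in the authors' deposited tables. Ywhaz, a 14-3-3 adaptor protein, was listed after shock only, and the authors' deposited table gives it 0.0620 (adjusted p = 7.9e-15). The size of a change and its p therefore ordered the bins differently. For Taok1 the smaller change had the smaller p at similar base means, 1581 after context and 1609 after shock. The reason for the different order was not tested.

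Among member bins with a base mean of at least 50, the context list was led by Reln, a secreted protein of the extracellular matrix, at 0.38 (base mean 81.5, adjusted p = 4.3e-04), and Fryl at 0.35 (base mean 50.2, adjusted p = 0.0544) in the authors' deposited table. Celsr2, an adhesion receptor of planar cell polarity, followed at 0.30 (base mean 769, adjusted p = 1e-13), and Prex1, a Rac exchange factor, at 0.29 (base mean 178) in the authors' deposited table. Caly, listed after shock at 0.35 with a base mean of 55.2 and an adjusted p of 0.0969, was the highest member bin with a base mean of at least 50 in the authors' deposited shock table, followed by Mll1 and by Smg1 at 0.31 (adjusted p = 1.6e-05), a kinase of nonsense-mediated decay. Just inside the threshold after context stood Rnf216 and Bag4, both with an adjusted p of 0.0998 and changes of 0.0945 and 0.0614 in the authors' deposited table. After shock Nos1ap (adjusted p = 0.0998, change 0.37, base mean 47.1) and Ankrd12 (adjusted p = 0.0989, change 0.22) stood there in the authors' deposited table. Bins at or above the threshold are not in the tables used here.

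Few first bins were lower. Timm17a, a subunit of the inner mitochondrial membrane translocase, stood at -0.16 after context (adjusted p = 1.2e-04) and -0.17 after shock (adjusted p = 4.4e-05), with its gene higher by 0.29 and 0.17, in the authors' deposited tables. Hnrnpd, an RNA-binding protein that recognises AU-rich 3′ UTR elements, had -0.14 (adjusted p = 0.0251) and -0.21 (adjusted p = 1.8e-04) in the authors' deposited tables. Cnksr2, a synaptic scaffold of Ras signalling, had -0.0751 (adjusted p = 0.0946) and -0.11 (adjusted p = 0.00667), and Glp2r, a peptide hormone receptor, -0.30 (adjusted p = 1.7e-04) and -0.22 (adjusted p = 0.0578) in the authors' deposited tables. These 4 are the bins lower in both comparisons. After context only, Scp2, Tmem29, Ufm1 and Cdk7 were lower, from -0.41 for Scp2 to -0.0555 for Cdk7, in the authors' deposited table. After shock only, Pex5l, Sphk2, Lypd1, Smim14, Sub1, Itm2b and Mrps25 were lower, from -0.46 for Pex5l to -0.0503 for Mrps25, in the authors' deposited table.

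Lists of genes that make or read 3′ ends are set beside the 11.1% of minus-strand genes that were members. In the quintile of highest base mean that share was 33.7%. None of 8 minus-strand genes of cleavage and polyadenylation factors was a member, nor any of 24 cytosolic ribosomal protein genes or 13 immediate early genes, and 1 of 32 respiratory chain genes was. Among regulators of 3′ end choice 3 of 20 were members, namely Elavl3, Celf4 and Ptbp2, which bind RNA in neurons. Among genes of cytosolic mRNA decay 5 of 17 were members, among them Ago1 and Ago2, which carry microRNAs, and the deadenylases Cnot6 and Cnot6l. Ago1 had bin changes of 0.17 (adjusted p = 4.75e-18) and 0.14 (adjusted p = 1.8e-10) in the authors' deposited tables. At the level of whole genes on either strand, where a call is a deposited adjusted p below 0.05, 1 of 27 cleavage and polyadenylation genes rose and 4 fell after context, and 6 rose and 10 fell after shock. Over all genes 19.6% were called after context and 41.6% after shock. Of 27 in CA1, none was called after context and 1 fell after shock. The authors' deposited gene tables give Pabpc1, which binds poly(A) tails, as 1.20-fold lower after context (adjusted p = 5.5e-08) and 1.29-fold lower after shock (adjusted p = 9.2e-21) in ACC. Pcf11, a termination factor, was 1.22-fold lower (adjusted p = 0.00750) and 1.20-fold lower (adjusted p = 7.1e-05) in the authors' deposited tables. Cpsf1, a subunit of the complex that recognises the polyadenylation signal, stood at 0.42 on the log2 scale after shock (adjusted p = 9.5e-17) and at 0.06 after context (adjusted p = 0.679), by the authors' deposited tables. The 5 of 27 called after context is near that background. The part of these genes in the shift of the first bins was not tested.

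Whole member genes were lower in ACC more often than higher. After context 268 of 856 were called (31.3%), 40 higher and 228 lower, beside 19.6% of all genes called (9.37% higher and 10.2% lower). After shock 554 were called (64.7%), 82 higher and 472 lower, beside 41.6% of all genes (19.8% higher and 21.8% lower). The median gene-level log2 fold change of the members was -0.0815 and -0.13, and that of all genes was 0.0036 and 0.0063. Member genes are more abundant than others, with a median base mean of 1914 against 329 for the other minus-strand genes after context, and a call is easier in abundant genes. Among genes with a base mean of at least 1000, 30.6% of members and 30.8% of all genes were called after context, and 67.1% and 63.6% after shock. In that class 36 members were higher and 165 lower after context, against 294 and 193 of the other minus-strand genes. After shock the numbers were 70 and 384 against 547 and 525. The same ACC contrasts chose the members, so these gene counts are a description. The class is not matched for transcript length, which is taken up below. Of the 792 bins higher after context, 216 lay in genes called lower, 31 in genes called higher and 545 in genes not called. Of the 485 after shock, the numbers were 295, 29 and 161.

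**Figure D3:**
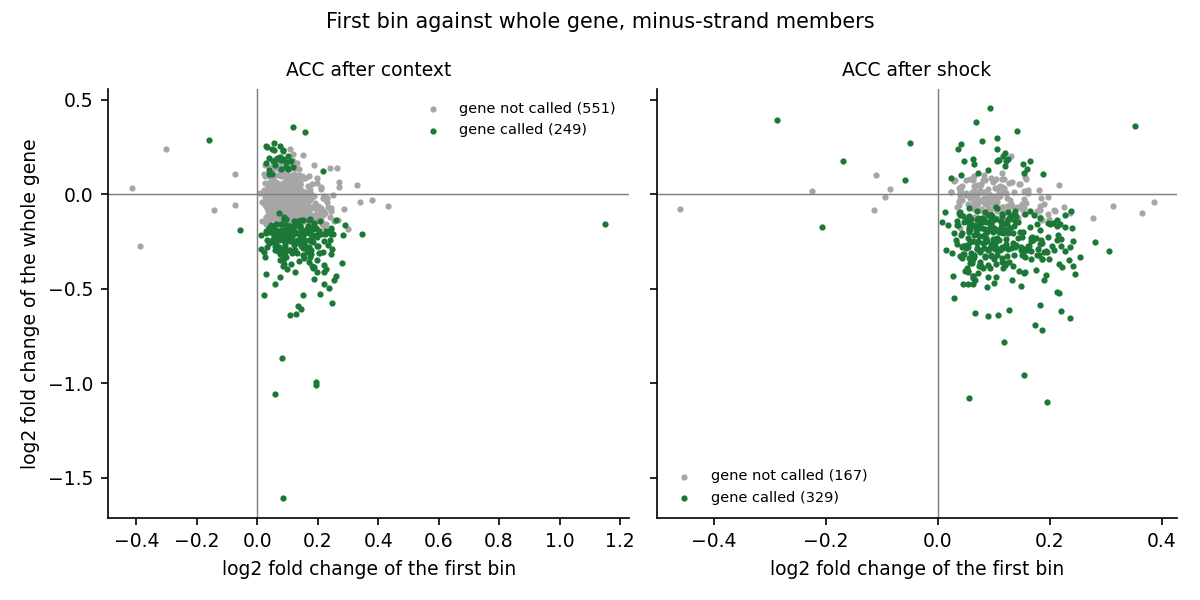
Log2 fold change of the first bin (x axis) against that of its whole gene (y axis) in the 2 ACC comparisons, trained over naive, with each point a listed first bin and green points genes with an adjusted p below 0.05. After context 249 of 800 genes and after shock 329 of 496 are called, and most called genes lie to the right of 0 and below 0, bin higher and gene lower.

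Transcript length moved with these gene-level values. Over all genes in ACC after context, the median log2 fold change fell across quintiles of longest transcript, from 0.15 through 0.0673, 0.0143 and -0.0402 to -0.14. The member genes of the same quintiles had medians of 0.16 (17 genes), 0.0307 (45), 0.0034 (117), -0.0417 (237) and -0.15 (440), close to those of all genes at each length. After shock the medians went from 0.16 to -0.16 over all genes and from 0.13 to -0.21 in members, and in CA1 after context they went the other way, from -0.0274 to 0.0444 over all genes. The part of length in the lower values of the member genes was not tested.

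The members are long genes with long 3′ ends. Their longest annotated transcript had a median of 5360 bases against 3132 in the other minus-strand genes, their longest 3′ UTR 2703 against 1108, and their M21 first bin 2033.5 against 456. The share of minus-strand genes that were members climbed with transcript length from 1.18% in the shortest quintile through 2.83%, 7.75% and 15.6% to 28.8% in the longest. By 3′ UTR length the same shares were 0.525%, 4.47%, 8.86%, 15.0% and 27.3%, and by base mean 0.133%, 0.931%, 5.99%, 16.2% and 33.7%. A bin with more reads can be listed at a smaller change, so abundance and bin length enter the listing itself. Within the members the change did not grow with 3′ UTR length. From the shortest to the longest quintile of 3′ UTR, the median bin change was 0.12, 0.11, 0.10, 0.0991 and 0.0903 after context, and 0.12, 0.0948, 0.0956, 0.0989 and 0.0942 after shock.

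**Figure D4:**
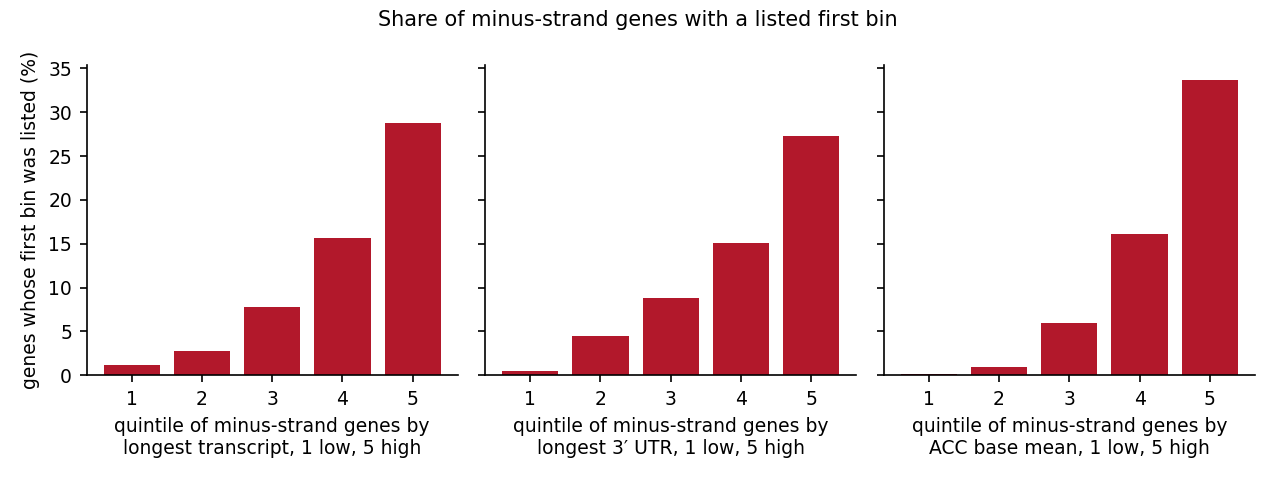
Share of minus-strand genes whose first bin was listed in ACC (y axis, percent, bars from 0) by quintile of longest annotated transcript, of longest 3′ UTR and of gene base mean in ACC after context. Each share climbs from the lowest to the highest quintile, to 28.8%, 27.3% and 33.7%.

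CA1 libraries were not used by the rule, and 1 hour after training the members listed there were lower, not higher. After context 19 of the 856 first bins were listed in CA1 (2.22%), all lower, with a median of -0.14, where 0.0924% of all bins were listed (0.0286% higher and 0.0638% lower). After shock 18 were listed (2.1%), all lower, with a median of -0.10, where 0.0902% of all bins were listed (0.031% higher and 0.0592% lower). Member genes are abundant and their first bins long, so such bins are easier to list and these shares are not like for like. In all 28 members were listed in at least 1 CA1 table and 9 in both. The 2 CA1 comparisons share their naive libraries, and the labels do not say whether ACC and CA1 of the naive groups came from the same mice. Of the 28, 27 were higher in every ACC table that lists them, and all 28 were lower in every CA1 table that lists them. The difference between the regions was not tested.

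Kcnh7, a potassium channel of the ether-a-go-go-related type, was among the members listed in all 4 tables. Its bin was higher in ACC by 0.0284 (adjusted p = 5.9e-07) and 0.0656 (adjusted p = 2.3e-06) and lower in CA1, at -0.0827 after context (adjusted p = 0.0685) and -0.0528 after shock (adjusted p = 0.0374), in the authors' deposited tables. Stxbp5, or tomosyn, which restrains vesicle fusion, had 0.10 and 0.0859 in ACC and -0.18 (adjusted p = 0.00511) and -0.19 (adjusted p = 0.0735) in CA1 in the authors' deposited tables. Thsd7a stood at 0.12 and 0.21 in ACC and at -0.16 (adjusted p = 0.0298) and -0.11 (adjusted p = 0.0159) in CA1 in the authors' deposited tables. Thus all 3 were higher in both ACC comparisons and lower in both CA1 comparisons, which differ in region and in time after training. Trio, a guanine nucleotide exchange factor, had 0.17 (adjusted p = 2.9e-05) and 0.19 (adjusted p = 8.2e-07) in ACC and -0.21 (adjusted p = 0.0940) in CA1 after context in the authors' deposited tables. Sphk2, a sphingosine kinase, is the exception, lower in both regions, with -0.29 in ACC after shock (adjusted p = 0.0769) and -0.27 (adjusted p = 7.2e-05) and -0.46 (adjusted p = 2.9e-09) in CA1 in the authors' deposited tables. Its whole gene was higher in ACC after shock, by 0.39 (adjusted p = 2.6e-07), and in CA1, by 0.30 (adjusted p = 0.00131) and 0.33 (adjusted p = 0.00342), in the authors' deposited tables.

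**Figure D5:**
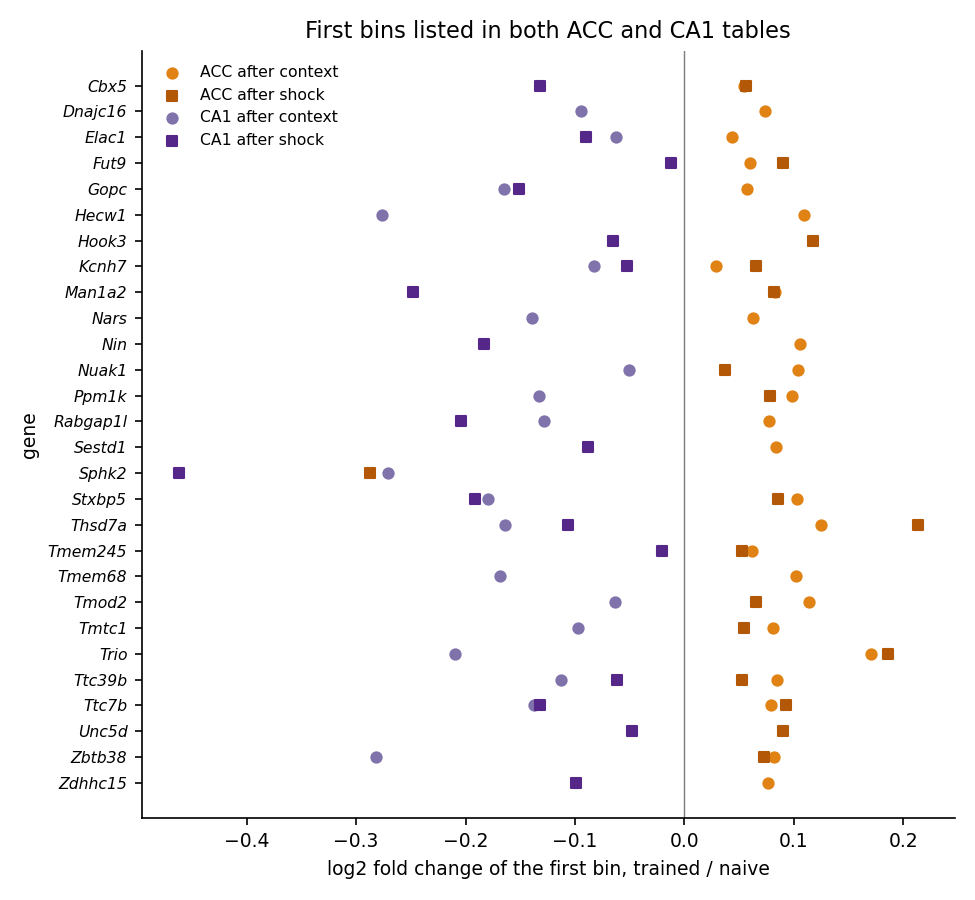
Log2 fold change (trained over naive) of the 28 first bins listed in an ACC and a CA1 table, 1 row per gene, with circles for context and squares for shock, and orange for ACC and purple for CA1. In 27 rows the ACC points lie right of 0 and the CA1 points left of it, and in the row of Sphk2 all points lie left.

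Other bins of member genes listed in CA1 went the other way. All 11 further listed bins of member genes after context and all 12 after shock were higher in CA1, and 2 and 1 of them lay in genes whose first bin was listed there. First bins of minus-strand genes that were not members went the same way, lower in 18 of 18 cases after context and in 10 of 11 after shock. The last bin of plus-strand genes was lower in CA1 in 20 of 20 and 14 of 14 listed cases. The lower direction at 3′ ends in CA1 was thus not particular to the members.

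At the level of whole genes, members in CA1 were called higher more often than lower. After context 122 of 856 were called (14.3%), 89 higher and 33 lower, beside 8.03% of all genes (4.62% higher and 3.41% lower). After shock 61 were called (7.13%), 42 higher and 19 lower, beside 6.05% of all genes (3.21% higher and 2.84% lower), a share near the background. With a base mean of at least 1000, 88 of 629 members were called after context, where 11.6% of all genes were, and 46 of 629 (7.31%) after shock, where 6.9% were. Of the 228 member genes lower in ACC after context, 26 were higher and 7 lower in CA1 after context. Of the 588 not called in ACC after context the numbers were 61 and 24. Of the 472 lower in ACC after shock, 33 were higher and 25 lower in CA1 after context, and 17 and 11 after shock. Whether the CA1 direction goes with the ACC direction was not tested. Kcnq3 was 1.72-fold higher in CA1 after context (adjusted p = 1.7e-05) and 1.58-fold higher after shock (adjusted p = 8.3e-04) in the authors' deposited tables. Its gene value leaves out most of the first bin's reads in ACC, as given above, and its gene base mean in CA1 was similarly low, 285 after context. Ago2 was lower in ACC, at -0.33 and -0.34, and higher in CA1, at 0.39 (adjusted p = 0.00140) and 0.33 (adjusted p = 0.0276), in the authors' deposited tables. Nptx1, a secreted pentraxin at excitatory synapses, was higher in CA1 by 0.36 (adjusted p = 9.3e-08) and 0.32 (adjusted p = 5.9e-04) in the authors' deposited tables. Cpeb2, no member but a regulator of 3′ ends, fell in ACC by 0.36 and 0.43 and in CA1 by 0.20 after context (adjusted p = 0.0348) in the authors' deposited tables.

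The dissections carried the markers of their regions. In the authors' deposited ACC tables after context Slc17a7, a vesicular glutamate transporter of cortical neurons, had a base mean of 32118 and Tbr1, a deep layer factor, 3603. Fibcd1, a CA1 marker, had a base mean of 128 in ACC and 4061 in CA1 after context in the authors' deposited tables. Of 13 markers of the neighbouring striatum and thalamus, 4 were called higher and 2 lower in ACC after context, and 4 and 3 after shock. Adora2a, a striatal receptor, was higher by 1.03 (adjusted p = 0.00155) and 1.00 (adjusted p = 2.7e-04) on a log2 scale, by the authors' deposited ACC tables. None of the 4 minus-strand genes among these 13 was a member. Of 18 non-neuronal markers, 4 were called higher and none lower after context, and 4 higher and 7 lower after shock. Over all genes 19.6% were called after context and 41.6% after shock. The part of tissue makeup in the shift of the first bins was not tested.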

How the data were processed

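RNA was extracted with Tri Reagent and libraries were made with the TruSeq RNA v2 kit, per the labels' protocols. CASAVA 1.8.2, STAR 2.3.0e, SAMtools and DESeq2 on build mm10 are named in the submitters' processing notes. The exon-level tool, the gene annotation, the bin numbering and any use of strand in counting are not stated by any source used here. Without strand, reads of overlapping genes on opposite strands cannot be told apart. The deposited tables hold the authors' base mean (a normalised count signal), log2 fold change and p-value per gene and bin, per the file headers. Bin tables list bins with a deposited adjusted p-value below 0.1. The number of bins tested was recovered from the listed p-values. Depth is unknown, and no SD, interval or refit was possible.

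Members and gene lists were chosen with earlier results of these data known. Genes named were the smallest p, the highest and lowest folds at a base mean of at least 50, all lower bins, those nearest the threshold, up to 4 per list, and all listed in CA1. The sign was taken as trained over naive. Across 2036 bins listed in both ACC tables the difference in log2 fold change had a slope of 0.54 to the difference in relative base mean. In the authors' deposited CA1 tables bin 14 of Homer1 was higher (0.62 and 0.82) and bin 25 lower (-0.26 and -0.25). Gene models came from GENCODE release M21 (15337 of 15482 genes matched) and were cut into exonic bins with Python 3.11.15 and pandas 2.3.3. The scripts were tested on simulated data.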

Additional observations from a re-analysis of the deposited data

How the results depend on the processing

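Of 28 alternatives, 21 left the value within 1.5 times that reported and none turned a direction. For genes lower in ACC only the lower count was taken, and the 3′ end shares have no direction, so these could not turn. The alternatives for ACC bins took subsets of members that were nearly all higher, so a turn was hardly possible there. Bins higher in ACC after shock numbered 305 (6 lower) at an adjusted p under 0.01. Member genes called in CA1 after context numbered 65 at an adjusted p under 0.01 and 72 among the members listed in both ACC tables, and after shock 28 and 38. Member genes lower in ACC numbered 145 after context at an adjusted p under 0.01, and 277 after shock among the members listed in both ACC tables. The counts of 72, 38 and 277 are over 440 member genes in place of 856. With genes that overlap no plus-strand gene in the tables, 698 of 704 bins were higher after context and 437 of 445 after shock. Among the 771 member genes whose first bin was not outside the deposited gene or above it in base mean, 190 were lower after context and 421 after shock. That choice and the base mean minimum of 1000 for CA1 calls were made after seeing the data. No paired analysis was possible because the deposited tables hold no value per library, and for the same reason no library could be left out. Listing thresholds, unknown depth and the reference positions of the bins limit all counts.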
